A study of Mus musculus with 30 samples.

Results

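The comparison described here is that of DSS-treated against control mice in right ovaries, taken alone. All libraries labelled as right ovary were used: 15 of the 30 libraries of the series, 7 from DSS mice and 8 from control mice, with 1 library per animal and no averaging with the left ovary of the same mouse. Transcript levels were compared for the 14509 genes, of 50600 in the deposited table, that had a mean of at least 5 normalized counts over these 15 libraries.

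The DSS group consisted of female C57BL/6 mice that received 3% DSS (dextran sulfate sodium, which damages the lining of the colon and causes colitis) in drinking water for 7 days while still sexually immature. The control group consisted of female littermates of the same strain without DSS. Ovaries of both groups were taken after sexual maturity, and the labels give neither the age nor the stage of the estrous cycle. RNA was measured by CEL-Seq, which primes on poly(A) with oligo-dT and counts tags at the 3' ends of transcripts. The comparison asks which ovarian transcripts differed, in 1 ovary per animal, after DSS given before maturity.

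The adult ovary holds follicles, in which an oocyte is surrounded by granulosa cells that make anti-Müllerian hormone and, through aromatase, estradiol. Theca and interstitial cells around the follicles make androgens, and corpora lutea, formed from ovulated follicles, make progesterone. The mix of these cells shifts with each estrous cycle, and oviduct and fat lie next to the ovary and can be collected with it. In bulk tissue, fewer cells of a type and less RNA per cell cannot be told apart.

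The libraries had the transcripts of an ovary. All 6 oocyte markers checked (such as Zp3, Gdf9 and Bmp15), all 7 granulosa markers (such as Amh, Inha and Foxl2) and all 3 luteal markers were above 0 in all 15 libraries. Of 5 theca and interstitial markers, 4 were above 0 in every library, while Insl3, a theca hormone, is listed at 0 in all of them. Recovered read totals were 3434761 to 6257834 in DSS libraries (median 4843687) and 3695060 to 4755090 in control libraries (median 4297161). Errors are SDs over mice, with n = 7 DSS and n = 8 control throughout. The p-values set each group difference against the spread between these mice.

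A single gene passed the test in right ovaries. RP24-282C4.9, a transcript of the annotation class TEC (a transcribed region that still awaits experimental evidence), rose in DSS right ovaries. Its levels in the 7 DSS ovaries were 49.5 at the lowest, 62.8 at the median and 82.8 at the highest, against 12.3, 23.4 and 38.0 normalized counts in the 8 control ovaries. The groups did not overlap, and the lowest DSS ovary, of library DSS_298_11.1_right, stood above the highest control ovary, of library control_250_10.5_right. The means were 62.4 ± 11.03 in DSS ovaries and 25.2 ± 8.88 in control ovaries, a log2 difference of 1.34 (SE 0.20, 95% interval 0.92 to 1.75) on the log2(normalized count + 1) scale. Its adjusted p was 0.0226 with limma, Benjamini-Hochberg adjusted over all 14509 genes, 0.0173 with edgeR and 2.45e-07 with DESeq2, both on recovered reads.

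RP24-282C4.9 (ENSMUSG00000111264.1) lies on chromosome 9 at 44618253 to 44621018 on the plus strand (GRCm38), and GENCODE M21 names it E030022I16Rik. It is a single exon of 2766 bases that overlaps 0 exons of Ddx6, whose transcript runs on the same strand: it sits in the intron between the exons that end at 44614316 and begin at 44623619. Ddx6, an RNA helicase of mRNA decay and translational repression, was at 272 ± 13.9 in DSS ovaries and 273.96 ± 28.55 in control ovaries, with a log2 difference of -0.0043 (SE 0.07). Since CEL-Seq primes on poly(A), the longest run of A inside the transcript is shown (capitals, 14 bases, ending 883 bases before the annotated 3' end, chr9:44620082-44620175), followed by its last 100 bases (chr9:44620919-44621018, no capitals), both 5′ to 3′ on the plus strand from GENCODE M21:
RP24-282C4.9 A run: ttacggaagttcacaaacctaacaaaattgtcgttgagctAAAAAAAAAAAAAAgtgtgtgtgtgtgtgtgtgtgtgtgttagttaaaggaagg
RP24-282C4.9 last bases: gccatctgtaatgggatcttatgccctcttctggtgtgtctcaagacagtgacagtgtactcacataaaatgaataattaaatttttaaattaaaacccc
A run of A at least this long occurred in the longest annotated transcript of 16.88% of tested TEC genes and of 7.9% of all tested genes with a transcript. The hexamer AATAAA, searched on the transcript strand, is not in these last 100 bases, and it is in the last 100 bases of 25% of TEC and 59.8% of all tested transcripts. Whether the tags came from the 3' end, from the A run or from unspliced Ddx6 RNA was not tested.

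The call depended on single libraries. Leaving out any 1 of 8 libraries (DSS_256_10.4_right, DSS_262_10.3_right, DSS_292_11.2_right, DSS_322_13.2_right, DSS_340_15.1_right, control_304_11.4_right, control_328_13.4_right or control_388_16.9_right) left 0 genes past the threshold, while the log2 difference of RP24-282C4.9 stayed between 1.21 and 1.43 over all 15 left-out libraries (limma adjusted p between 0.00435 and 0.105). Left ovaries of the same mice had 44.1 ± 22.8 in DSS and 29.1 ± 7.64 in control mice, a log2 difference of 0.48 with a limma adjusted p of 0.554. The right minus left difference of 0.85 (SE 0.24) did not pass with limma either (adjusted p = 0.637).

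**Figure D1:**
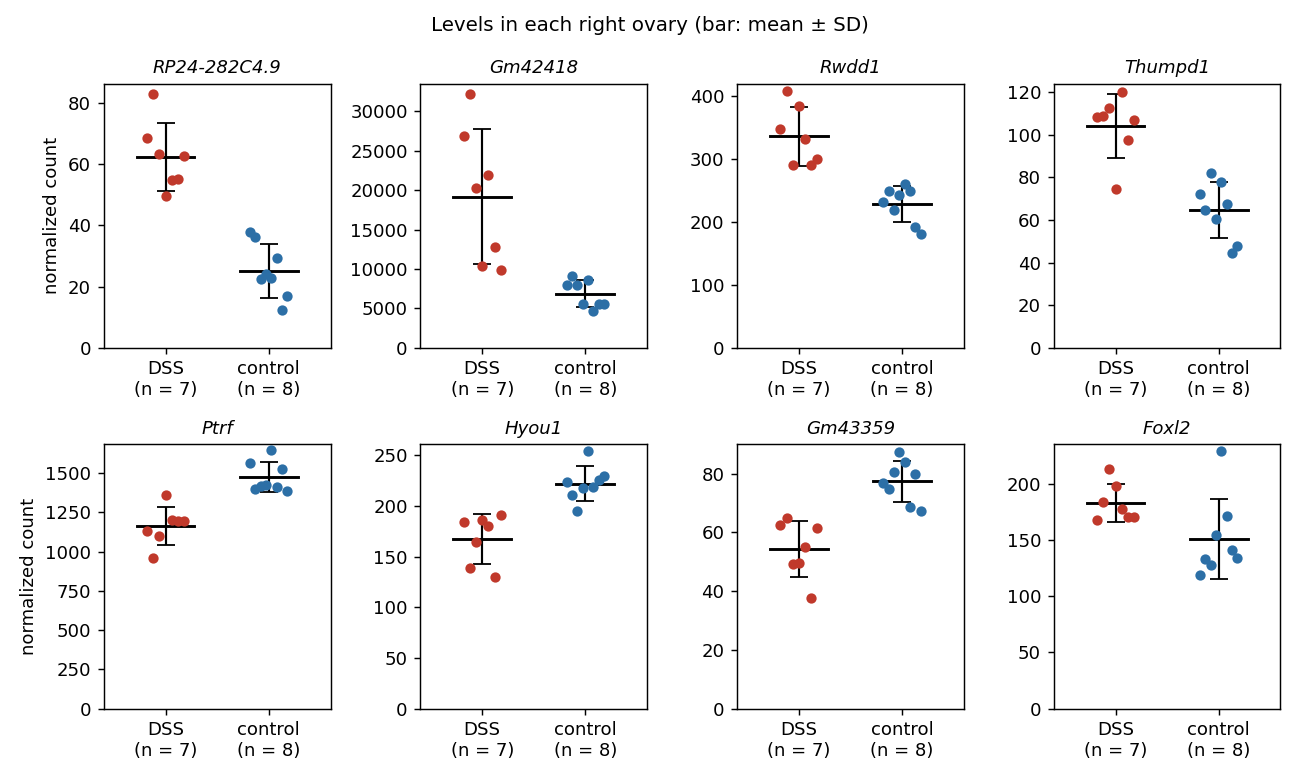
Normalized counts of 8 genes in each right ovary of 7 DSS and 8 control mice (points), with the mean and SD as bars. DSS and control points of RP24-282C4.9, Gm42418, Rwdd1, Ptrf, Hyou1 and Gm43359 do not overlap, while Thumpd1 and Foxl2 each have 2 control points at or above the lowest DSS point.

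Across all genes, limma called 1 gene higher (0.00689% of those tested) and 0 lower (0%) in DSS right ovaries. edgeR called 2, RP24-282C4.9 and Gm42418, and DESeq2 called 20, of which 14 were higher and 6 lower. At an unadjusted p under 0.05, limma gave 572 genes that were higher (3.94%) and 431 that were lower (2.97%), 1003 in all where 725 are expected without any difference. Leaving out 1 library moved that total between 755 (without DSS_262_10.3_right) and 1151 (without control_346_15.4_right). With each library's slope on GC content as a covariate, described below and added after seeing the data, it was 433. For the genes that follow, limma's adjusted p was above 0.05, and their values are given as such. DESeq2 called all 10 of the higher genes named here (adjusted p of 2.45e-07 to 0.0168) and, of the 10 lower ones, Ptrf, Hyou1, Gm43359, Gigyf1, Myh9 and Myl12a (adjusted p of 0.000856 to 0.0490), but not Cplx2, Nr1h2, Uhrf1bp1 or Plxnb2.

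The next 2 genes by p had a limma adjusted p just above 0.05 and did not pass. Gm42418 (ENSMUSG00000098178.1, chromosome 17, 39846958 to 39848788, plus strand), annotated as a long noncoding RNA in a ribosomal RNA repeat, was at 9840 at the lowest, 20229 at the median and 32136 at the highest in DSS ovaries, against 4640, 6748 and 9091 normalized counts in control ovaries. The groups did not overlap. Its means were 19165 ± 8582 in DSS and 6865 ± 1731 in control ovaries (log2 difference 1.39, SE 0.23; adjusted p = 0.0531 with limma, 0.0314 with edgeR). It overlaps CT010467.1 and AY036118 on the other strand, and its reads may belong to any of them. Whether counting used the strand is not given in the sources used here.

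Rwdd1, which encodes an RWD domain protein that binds the GTPase DRG2, was at 290.0, 331 (mean 336 ± 46.8) and 408 in the lowest, median and highest DSS ovary, against 181, 237 and 260.8 (mean 228 ± 28.7) in control ovaries. The groups did not overlap. Its log2 difference was 0.56 (SE 0.10; adjusted p = 0.0531 with limma). Rwdd1 (ENSMUSG00000019782.10) is on chromosome 10 at 33996255 to 34019624, minus strand, and overlaps Gm48045 on the other strand. In left ovaries it was at 251 ± 80.1 in DSS and 187 ± 43.7 in control mice (log2 difference 0.39).

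The other 7 of the 10 highest-ranked genes by p with a higher mean in DSS right ovaries were all protein-coding. Thumpd1, the adaptor through which NAT10 acetylates tRNA, was at 104 ± 14.8 in DSS and 64.6 ± 13.3 in control ovaries (log2 difference 0.69, SE 0.13, adjusted p = 0.125 with limma). Senp6, a protease that trims SUMO chains, was at 307 ± 31.4 in DSS and 228 ± 26.2 in control ovaries without overlap (log2 difference 0.43). Ankhd1, an ankyrin repeat and KH domain protein, was at 236 ± 15.6 in DSS and 183 ± 19.3 in control ovaries, also without overlap (log2 difference 0.37). Its gene overlaps Gm6542, AC115631.1 and Eif4ebp3 on the same strand, so its reads are uncertain. Brca2, a protein of DNA double-strand break repair, was at 77.0 ± 12.0 in DSS and 50.1 ± 9.90 in control ovaries (log2 difference 0.62). Yes1, a Src-family tyrosine kinase (0.66), Zdhhc21, a palmitoyltransferase (0.47), and Cep44, a centriole protein (0.74), completed the group, and the limma adjusted p-values of the 7 ran from 0.125 to 0.213. All 10 genes had 7 of 7 DSS ovaries above the control median, which choosing them by p from the same values favours. The share of all tested genes with such a count was not computed.

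The 10 highest-ranked genes by p with a lower mean differed by less. Ptrf, also known as Cavin1, a coat protein of caveolae, was at 961, 1193 and 1361 in the lowest, median and highest DSS ovary, against 1387, 1423 and 1650 in control ovaries. The groups did not overlap, with library DSS_298_11.1_right next to the control range. Its means were 1164 ± 121 in DSS and 1474 ± 95.9 in control ovaries (log2 difference -0.34, SE 0.07, adjusted p = 0.125 with limma). Hyou1, a chaperone of the endoplasmic reticulum, was at 168 ± 24.7 in DSS and 222 ± 17.1 in control ovaries (log2 difference -0.41). Gm43359, a TEC transcript inside Atp2a2 on the same strand, was at 54.3 ± 9.67 in DSS and 77.4 ± 7.06 in control ovaries (log2 difference -0.52), while Atp2a2 itself, the calcium pump of the endoplasmic reticulum, had a log2 difference of -0.11 (SE 0.07). Neither Hyou1 nor Gm43359 overlapped between groups.

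Of the other 7, Myh9, the heavy chain of non-muscle myosin IIA, was at 2013.5 ± 160 in DSS and 2414 ± 213 in control ovaries (log2 difference -0.26). Myl12a, a regulatory light chain of that myosin, was at 486 ± 32.6 in DSS and 589 ± 55.4 in control ovaries (log2 difference -0.27). Its gene overlaps Myl12b on the same strand, a near-identical copy, so its reads are uncertain. Nr1h2, the oxysterol receptor LXR beta, was at 263 ± 18.2 in DSS and 313 ± 21.9 in control ovaries (log2 difference -0.25). Gigyf1, a partner of the translational repressor 4EHP, had a log2 difference of -0.36, Cplx2, a complexin that regulates vesicle fusion, of -0.31, Uhrf1bp1 of -0.30 and Plxnb2, a semaphorin receptor, of -0.27. All 10 had 7 of 7 DSS ovaries below the control median, with limma adjusted p-values of 0.125 to 0.427. These genes too were chosen by p from the same values.

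**Figure D2:**
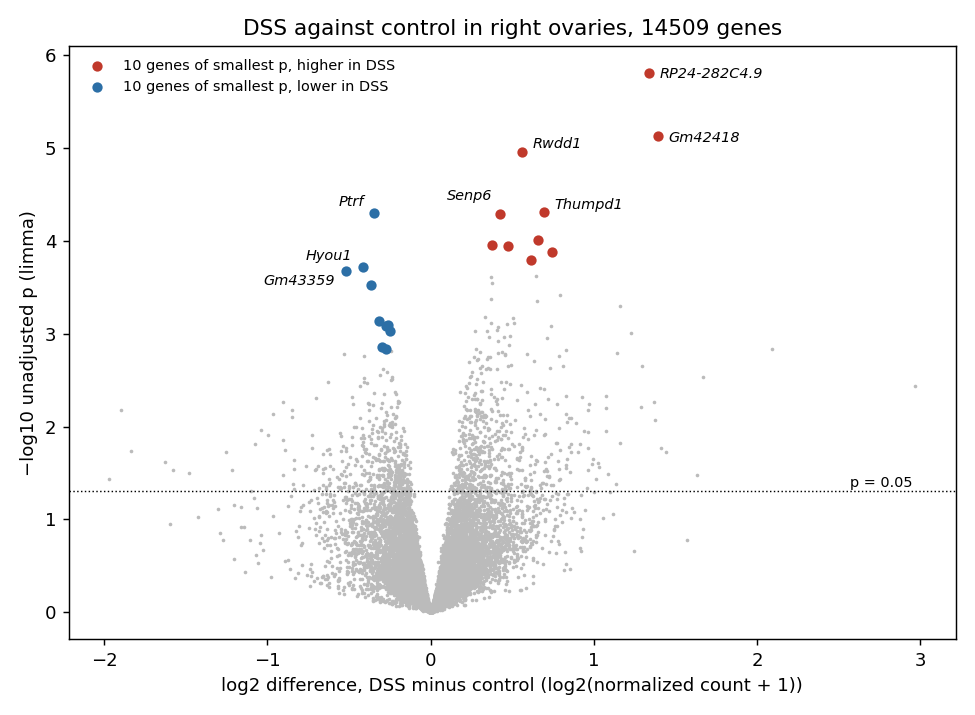
Each point is 1 of 14509 genes, by its log2 difference (DSS minus control, on log2(normalized count + 1)) and the negative log10 of its unadjusted limma p; the 10 genes of smallest p are coloured in each direction. RP24-282C4.9 and Gm42418 stand apart at 1.34 and 1.39, whereas the 10 lower genes lie between -0.52 and -0.25.

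In 5 genes every DSS right ovary was above every control right ovary (0.0345% of those tested): RP24-282C4.9, Gm42418, Rwdd1, Senp6 and Ankhd1. In 3 genes every DSS right ovary was below (0.0207%): Ptrf, Hyou1 and Gm43359. Of these 8, Gm43359 was the only one whose left ovaries differed the other way, with 66.6 ± 6.41 in DSS and 63.4 ± 13.7 in control mice (log2 difference 0.10; right minus left -0.615, limma adjusted p = 0.637).

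The libraries of the 2 groups differed in their make-up along with these genes. Mitochondrial rRNA took 4.10% to 7.79% of normalized counts in DSS ovaries (median 4.72%) and 2.49% to 4.44% in control ovaries (median 2.93%). Its larger member mt-Rnr2, the 16S rRNA, which was chosen after its values were seen, was at 192590 ± 44106 in DSS and 123350 ± 28361 in control ovaries (log2 difference 0.65, SE 0.14, adjusted p = 0.238 with limma, 0.00615 with DESeq2). The share of protein-coding genes was 89.0% to 93.44% in DSS ovaries and 93.45% to 95.4% in control ovaries, so the groups were next to each other without overlap. mt-Rnr1, the 12S rRNA, likewise chosen after its values were seen, was at 34209 ± 17050 in DSS and 18561 ± 5888 in control ovaries (log2 difference 0.83, adjusted p = 0.427 with limma).

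Base composition moved with the groups as well. The slope of each library's log2 deviations on the GC content of the longest transcript, per 10 percentage points, was -0.10 to 0.03 in DSS ovaries (median -0.03) and -0.04 to 0.07 in control ovaries (median 0.04). Of 5 equal bins of genes by GC content, the lowest had 61.71% and the highest 29.4% of genes higher in DSS ovaries, with median log2 differences of 0.03 and -0.06. The 10 higher genes named above had a median GC content of 43.6% and the 10 lower ones of 55.87%, against 48.8% over 7873 genes. Gm42418 among the higher genes (60.19%) and Gm43359 among the lower ones (41.73%) were the only ones on the other side of 48.8%. With the GC slope as a covariate, an alternative added after seeing the data, limma called 0 genes and the log2 difference of RP24-282C4.9 was 1.022 and that of Gm42418 1.15. What part RNA quality or library preparation had in these differences was not tested.

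**Figure D3:**
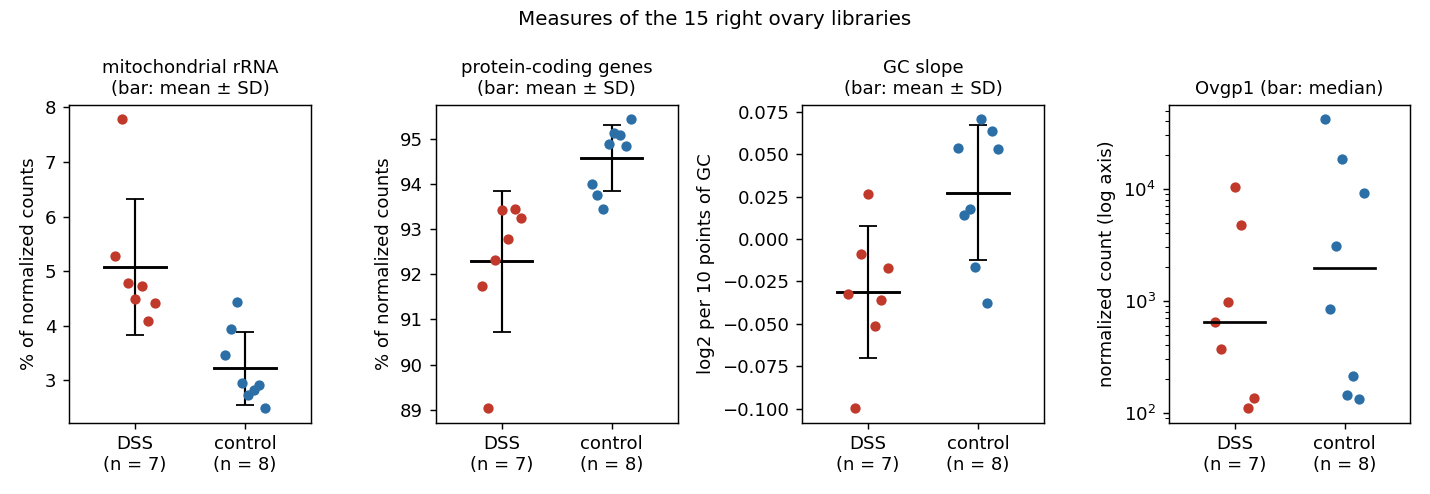
Mitochondrial rRNA share, protein-coding share, GC slope (each with mean and SD) and Ovgp1 level (log axis, with the median) of the 7 DSS and 8 control right ovary libraries. The protein-coding shares do not overlap (at most 93.44% in DSS and at least 93.45% in control libraries), while Ovgp1 spans 110 to 10440 in DSS and 133 to 41925 in control libraries.

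Of the noncoding classes, TEC, long intergenic, sense-intronic and processed transcripts and processed pseudogenes were more often higher than lower in DSS right ovaries. Antisense transcripts were not. Of 542 tested TEC transcripts, 375 (69.19%) were higher in DSS right ovaries and 1 passed, with a median log2 difference of 0.13. The groups overlapped widely in the TEC share of normalized counts. It was 0.36% to 0.58% in DSS ovaries (median 0.47%) and 0.37% to 0.55% in control ovaries (median 0.42%). Long intergenic RNAs were higher in 213 of 363 cases (58.68%, median 0.06) and sense-intronic transcripts in 36 of 60 (median 0.11), and 0 of either passed. Protein-coding genes were higher in 6188 of 12936 cases (47.84%, median -0.0073), and all tested genes in 7156 of 14509 (median -0.0027). Processed transcripts were higher in 104 of 180 cases (57.78%, median 0.04) and processed pseudogenes in 31 of 53 (58.49%, median 0.04), and 0 of either passed. Antisense transcripts were higher in 114 of 231 cases, with a median of -0.0022. In left ovaries TEC transcripts were higher in 385 of 521 cases (median 0.22). In right ovaries, TEC transcripts with a run of at least 10 A had a median log2 difference of 0.11 and those without one of 0.17.

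The amount of neighbouring tissue varied between right ovaries. Ovgp1, oviductin, a glycoprotein secreted by the oviduct, was at 110, 646 and 10440 in the lowest, median and highest DSS ovary, against 133, 1951 and 41925 in control ovaries. The groups overlapped almost entirely (log2 difference -1.14, SE 1.24, limma adjusted p = 0.906). Libraries DSS_298_11.1_right, control_250_10.5_right, control_328_13.4_right and control_388_16.9_right had over 5000. In left ovaries the direction was the opposite, with 14960 ± 24562 in DSS and 245 ± 115 in control mice (log2 difference 3.71; right minus left -4.85, limma adjusted p = 0.637). The first principal component of the right libraries took 26.51% of the variance and correlated with log2 Ovgp1 at an absolute r of 0.913 over the 15 libraries. This component was computed from the same values, oviduct genes included. Summed over 13 tested oviduct genes, the level was 206 to 11206 in DSS and 208 to 43268 in control ovaries, and 3 of 13 were higher in DSS (median -0.40). Leaving out 1 library gave medians of -0.83 (without DSS_298_11.1_right) to -0.05 (6 of 13 higher, without control_250_10.5_right), and without the 4 libraries over 5000 Ovgp1 the direction turned, with 9 of the 9 genes then tested higher (median 0.36). With an Ovgp1 covariate it was 12 of 13 (median 0.16), and with the GC slope as a covariate 8 of 13 (median 0.03).

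Of 13 tested adipose genes, 13 were higher in DSS right ovaries (median log2 difference 0.55) and 0 passed, with summed levels of 553 to 4811 in DSS and 306 to 5288 in control ovaries. The adipose median was 0.13 (8 of 13 higher) without DSS_256_10.4_right, 0.20 without DSS_394_16.3_right, 0.21 without control_346_15.4_right, 0.34 without DSS_322_13.2_right, 0.88 without DSS_262_10.3_right, 0.94 without control_250_10.5_right and 1.40 without the libraries over 5000 Ovgp1. Adipoq, adiponectin, was at 6.76 to 568.3 (median 154) in DSS and 9.07 to 607 (median 38.2) in control ovaries. Lipe, hormone-sensitive lipase, was at 40.3 ± 5.89 in DSS and 30.8 ± 6.65 in control ovaries (log2 difference 0.39, limma adjusted p = 0.599). Of the genes of stratified epithelium, 9 of 11 had a lower mean in DSS ovaries (median -1.07) and 0 passed, and the median was -0.53 without the libraries over 5000 Ovgp1. Krt14, a keratin of basal cells, was at 2.21 to 67.7 (median 3.38) in DSS and 3.10 to 145 (median 24.9) in control ovaries (log2 difference -1.63, limma adjusted p = 0.658). How far these tissues account for values of other genes was not tested.

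Granulosa genes stood higher in DSS right ovaries without any passing. Of 19 tested, 16 were higher, with a median log2 difference of 0.17, and 4 were higher at an unadjusted limma p under 0.05, against 3.94% of all tested genes. Foxl2, the transcription factor that keeps granulosa identity, was at 168, 178 and 213 in the lowest, median and highest DSS ovary, against 119, 138 and 230 in control ovaries. All 7 DSS ovaries lay above the control median, yet library control_346_15.4_right was within the DSS range and library control_334_13.5_right had the highest value of all (log2 difference 0.30, SE 0.11, limma adjusted p = 0.624). Esr2, the estrogen receptor beta of granulosa cells, was at 373 ± 67.4 in DSS and 283 ± 90.6 in control ovaries (log2 difference 0.44). Fst, the activin-binding follistatin, was at 126 ± 21.5 in DSS and 99.7 ± 25.7 in control ovaries (log2 difference 0.36), and Nr5a2, a nuclear receptor needed for ovulation and luteal steroid synthesis, at 1535 ± 225 in DSS and 1225 ± 208 in control ovaries (log2 difference 0.33).

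In left ovaries the same 19 genes had a median log2 difference of -0.28, and 0 of 19 were higher in DSS mice. Foxl2 was there at 122 ± 30.8 in DSS and 152 ± 11.6 in control mice (log2 difference -0.36; right minus left 0.66, SE 0.21, limma adjusted p = 0.637). Without the 4 right ovaries over 5000 Ovgp1, 14 of 19 granulosa genes were higher (median 0.04), without control_250_10.5_right alone 15 of 19 (median 0.05), without control_274_10.6_right 16 of 19 (median 0.11), without control_346_15.4_right 16 of 19 (median 0.27), and with the GC slope as a covariate 9 of 19 (median -0.01). Left DSS libraries held more oviduct transcripts, with a median log2 difference of 2.42 over the oviduct list, and the part this had in the difference between sides was not tested.

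Oocyte genes had a median log2 difference of 0.06 and 17 of 22 were higher in DSS right ovaries, with 0 passing. Gdf9, an oocyte growth factor that directs granulosa cells, was at 206 to 335 (median 283) in DSS and 199.7 to 463 (median 257) in control ovaries (log2 difference 0.01), and Kit, the receptor of growing oocytes, at 27.6 ± 4.97 in DSS and 21.7 ± 6.94 in control ovaries (0.37). In left ovaries the oocyte list had a median of -0.25 and 1 of 22 was higher in DSS mice. The right median was below 0 with the GC slope as a covariate (-0.07), without DSS_394_16.3_right (-0.03) or control_250_10.5_right (-0.02), with an Ovgp1 covariate (-0.02) and without libraries over 2000 Ovgp1 (-0.06). Cell cycle genes were higher in 18 of 24 cases (median 0.06, left -0.24, but 0.0029 without control_274_10.6_right and -0.02 with the GC slope as a covariate), with Top2a, a topoisomerase of dividing cells, at 2229 ± 273.3 in DSS and 2055 ± 602 in control ovaries.

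Hormone synthesis genes overlapped widely between groups. Of 19 genes of steroid synthesis, 13 were higher in DSS right ovaries (median 0.06) and 0 passed, and without control_250_10.5_right the count was 10 (median 0.0003) and without control_352_15.3_right 11 (median 0.0036). Akr1c18, the luteal enzyme that inactivates progesterone, was at 64.0, 145 and 308 in the lowest, median and highest DSS ovary, against 31.0, 59.8 and 113 in control ovaries. All 7 DSS ovaries were above the control median, and 3 control ovaries overlapped (log2 difference 0.96, SE 0.32, limma adjusted p = 0.569). Srd5a1, which reduces progesterone and testosterone at the 5-alpha position, was at 202, 273.7 and 283 in DSS ovaries, against 184, 303.6 and 406 in control ovaries. It was below the control median in 7 of 7 DSS ovaries, yet the lowest value of all was in library control_250_10.5_right (log2 difference -0.23, SE 0.12, limma adjusted p = 0.757). Its level is uncertain, since Gm17108 (same strand) and Nsun2 (other strand) overlap it. The share of all tested genes with 7 of 7 DSS ovaries below the control median was not computed.

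Amh, the granulosa hormone of growing follicles, was at 1382 ± 295 in DSS and 1490 ± 398 in control ovaries (log2 difference -0.08, 95% interval -0.44 to 0.28). Cyp19a1, aromatase, was at 60.6 ± 30.9 in DSS and 61.3 ± 48.9 in control ovaries (0.06, interval -0.78 to 0.90), and Fshr, the FSH receptor, at 25.5 ± 6.79 in DSS and 22.7 ± 8.92 in control ovaries (0.18, interval -0.29 to 0.66). Lhcgr, the LH receptor, was at 1891 ± 363 in DSS and 1766 ± 723 in control ovaries (0.25), and Star, which carries cholesterol into mitochondria, at 5192 ± 996 in DSS and 5004 ± 1697 in control ovaries (0.11). Cyp17a1, the androgen-making enzyme of theca cells, spanned 365 to 4533 in DSS and 44.7 to 2534 in control ovaries (0.69, SE 0.65). The directions of Cyp19a1, Fshr, Lhcgr and Cyp17a1 each turned under at least 1 alternative processing. The luteal list had 12 of 15 higher (median 0.13), but 8 of 15 (median 0.0036) without control_352_15.3_right and 10 of 15 (median 0.07) without control_346_15.4_right. Among its members was Onecut2, a transcription factor, at 158 ± 44.6 in DSS and 100.2 ± 37.1 in control ovaries (log2 difference 0.70, limma adjusted p = 0.531).

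Immune lists leaned upward without a call. Interferon response genes were higher in 20 of 25 cases (median 0.18), MHC class II genes in 7 of 7 (median 0.12), macrophage genes in 13 of 15 (median 0.08), T and NK cell genes in 6 of 6 (median 0.38) and B and plasma cell genes in 8 of 9 (median 0.75). Single libraries moved these medians: the interferon median was 0.07 (18 of 25 higher) without DSS_256_10.4_right and 0.11 without control_334_13.5_right, the MHC class II median ran from 0.04 (without control_352_15.3_right) to 0.23 (without DSS_262_10.3_right), the macrophage median from 0.05 (without DSS_298_11.1_right) to 0.16 (without DSS_262_10.3_right), and the B and plasma cell median was 0.49 without DSS_298_11.1_right. Irgm2, an interferon-inducible GTPase, was at 18.03 ± 4.39 in DSS and 12.8 ± 3.84 in control ovaries (log2 difference 0.48). Ighm, the heavy chain of IgM, was at 10.41 to 82.1 (median 18.9) in DSS and 7.06 to 16.1 (median 13.6) in control ovaries (log2 difference 0.79, limma adjusted p = 0.624). Aif1, a macrophage protein, was at 61.2 ± 13.22 in DSS and 48.5 ± 8.75 in control ovaries (0.32). Summed B and plasma cell levels overlapped, at 152.9 to 657 (median 263) in DSS and 134.5 to 680.6 (median 178) in control ovaries. Among 12 cytokine and NF-kB genes 5 were higher (median -0.04), turning to 10 of 12 (median 0.17) with the GC slope as a covariate, and the T and NK cell genes were few and low, with summed levels of 44.5 to 99.3 in DSS and 31.7 to 61.0 in control ovaries.

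Matrix genes leaned downward. Of 20 extracellular matrix genes, 17 were lower in DSS right ovaries (median log2 difference -0.20), 4 of them at an unadjusted limma p under 0.05, against 2.97% of all tested genes, and 0 past the adjusted threshold. Col6a1, a chain of the microfibrillar collagen VI, was at 958.5, 1095 and 1201 in the lowest, median and highest DSS ovary, against 1061, 1264 and 1486 in control ovaries. All 7 DSS ovaries were below the control median, with 3 control ovaries at or below the highest DSS ovary (log2 difference -0.21, SE 0.07, limma adjusted p = 0.569). Col3a1, the main fibrillar collagen of the stroma by count, was at 7938 ± 591 in DSS and 9768 ± 2754 in control ovaries (-0.26), and Col1a1 at 294 ± 57.8 in DSS and 373 ± 104 in control ovaries (-0.32). With the GC slope as a covariate 8 of 20 were higher (median -0.04), and without control_352_15.3_right the median was -0.11. Smooth muscle and pericyte genes were lower in 11 of 12 cases (median -0.13), with summed levels of 4424 to 7610 in DSS and 4548 to 16511 in control ovaries, and Mylk, myosin light chain kinase, at 1112 ± 177 in DSS and 1348 ± 532 in control ovaries. Their direction turned without 1 library: leaving out control_250_10.5_right gave 7 of 12 higher (median 0.02), and with the GC slope as a covariate 6 of 12 (median 0.02). In left ovaries the matrix list had a median of 0.05 and the smooth muscle list of 0.54.

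**Figure D4:**
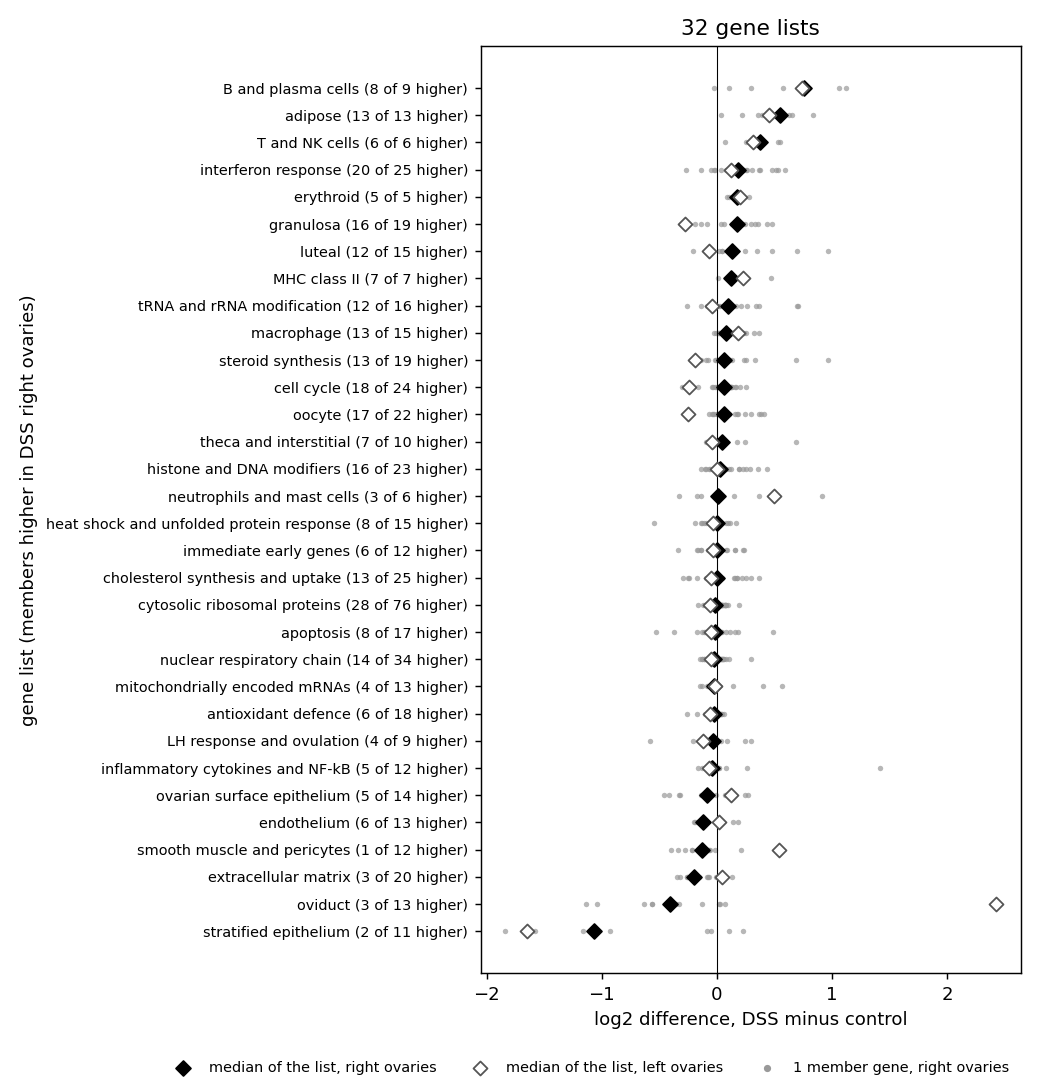
Log2 differences (DSS minus control) of the tested members of 32 gene lists in right ovaries (grey points), with the median of each list in right (black) and left ovaries (white). Granulosa, oocyte and cell cycle medians are above 0 in right ovaries (0.17, 0.06 and 0.06) and below 0 in left ovaries, and the oviduct medians are furthest apart, at -0.40 in right and 2.42 in left ovaries.

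Among genes of chromatin and RNA modification, 5 of 23 histone and DNA modifiers and 4 of 16 tRNA and rRNA modification genes were higher at an unadjusted limma p under 0.05, against 3.94% of all tested genes. The median log2 difference was 0.02 for the first list, with 16 of 23 higher, and 0.10 for the other, with 12 of 16 higher. Ezh2, the methyltransferase of the Polycomb complex, was at 115 ± 13.3 in DSS and 94.4 ± 14.6 in control ovaries (log2 difference 0.29, limma adjusted p = 0.599). Dnmt3a, a de novo DNA methyltransferase, was at 326 ± 26.7 in DSS and 285 ± 19.17 in control ovaries (0.19), and Kdm1a, a histone demethylase, at 63.6 ± 17.4 in DSS and 46.4 ± 9.51 in control ovaries (0.43). Pus7, a pseudouridine synthase, was at 92.3 ± 18.1 in DSS and 72.2 ± 9.44 in control ovaries (0.34), and Dkc1, the pseudouridine synthase of H/ACA particles, at 284 ± 49.4 in DSS and 235 ± 28.2 in control ovaries (0.26). Thumpd1, described above, is also a member of that list and 1 of its 4 genes at p under 0.05. An earlier analysis of both ovaries had put Thumpd1 among its first genes, so that count is not independent of these data.

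Basic cell functions were close to even. Cytosolic ribosomal protein genes were higher in 28 of 76 cases (median -0.02), nuclear respiratory chain genes in 14 of 34 (median -0.02), mitochondrially encoded mRNAs in 4 of 13 (median -0.03) and antioxidant genes in 6 of 18 (median -0.03). Apoptosis genes were higher in 8 of 17 cases (median -0.02) and heat shock and unfolded protein genes in 8 of 15 (median 0.0035). Bak1, a pore-forming BCL2 family member, was at 28.3 ± 6.31 in DSS and 36.7 ± 6.78 in control ovaries (log2 difference -0.37), below the control median in 7 of 7 DSS ovaries, with a limma adjusted p of 0.695. Cholesterol genes were higher in 13 of 25 cases (median 0.001). Srebf2, the sterol-sensing factor that switches on cholesterol synthesis, was at 124 ± 12.1 in DSS and 154 ± 26.1 in control ovaries (-0.30, limma adjusted p = 0.584). None of the members of the 32 lists passed with limma, and endothelial genes (6 of 13 higher, median -0.12), surface epithelium genes (5 of 14, -0.09), theca and interstitial genes (7 of 10, 0.04), ovulation genes (4 of 9, -0.03), immediate early genes (6 of 12, 0.0012), neutrophil and mast cell genes (3 of 6, 0.0052) and erythroid genes (5 of 5, 0.18) completed them. The erythroid count was 1 of 5 (median -0.06) without DSS_256_10.4_right and 2 of 5 without DSS_340_15.1_right. Over 24 alternatives, the median changed sign in 15 for immediate early genes, 12 each for neutrophil and mast cell genes and for heat shock genes, 9 for cholesterol genes, 8 for apoptosis genes, 5 each for surface epithelium, ovulation, cytokine and oocyte genes, 4 for oviduct genes, 3 for ribosomal protein genes, 2 each for smooth muscle and erythroid genes, and 1 each for granulosa, theca, cell cycle and antioxidant genes.

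The genes called in left ovaries were not called in right ovaries. In left ovaries limma called 11 of 14741 genes (0.0746%), all higher in DSS mice, among them RP23-167J19.2, 9930111J21Rik2 and Gm29055. Right ovaries had 4518 ± 1956 of RP23-167J19.2, a TEC transcript inside Lrriq1, in DSS and 3280 ± 979 in control mice (log2 difference 0.41 against 1.0203 in left ovaries; right minus left -0.61, limma adjusted p = 0.656). 9930111J21Rik2, a predicted interferon-inducible GTPase, was at 144 ± 34.8 in DSS and 112 ± 25.5 in control right ovaries (0.36 against 0.83 in left; right minus left -0.47, limma adjusted p = 0.646). Gm29055, a sense-intronic transcript of Dis3l2, was at 109.5 ± 21.9 in DSS and 79.1 ± 13.96 in control right ovaries (0.46 against 0.83; right minus left -0.37, limma adjusted p = 0.643). Of genes that stood lowest when both ovaries were averaged, Mpv17l2, a mitochondrial inner membrane protein, was at 45.1 ± 5.75 in DSS and 54.2 ± 5.52 in control right ovaries (-0.26), Tmem132a at 103.7 ± 15.2 and 126 ± 14.3 (-0.28), Clip2, a microtubule linker, at 29.7 ± 7.35 and 39.3 ± 5.80 (-0.42), Tiam1, a Rac1 exchange factor, at 26.7 ± 7.69 and 35.8 ± 6.26 (-0.45) and Evi5l at 38.7 ± 3.70 and 49.0 ± 11.9 (-0.30), DSS before control in each, with limma adjusted p-values of 0.599 to 0.740. Gm45792 had a log2 difference of 0.27 and Gm42669 of 0.36 in right ovaries.

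**Figure D5:**
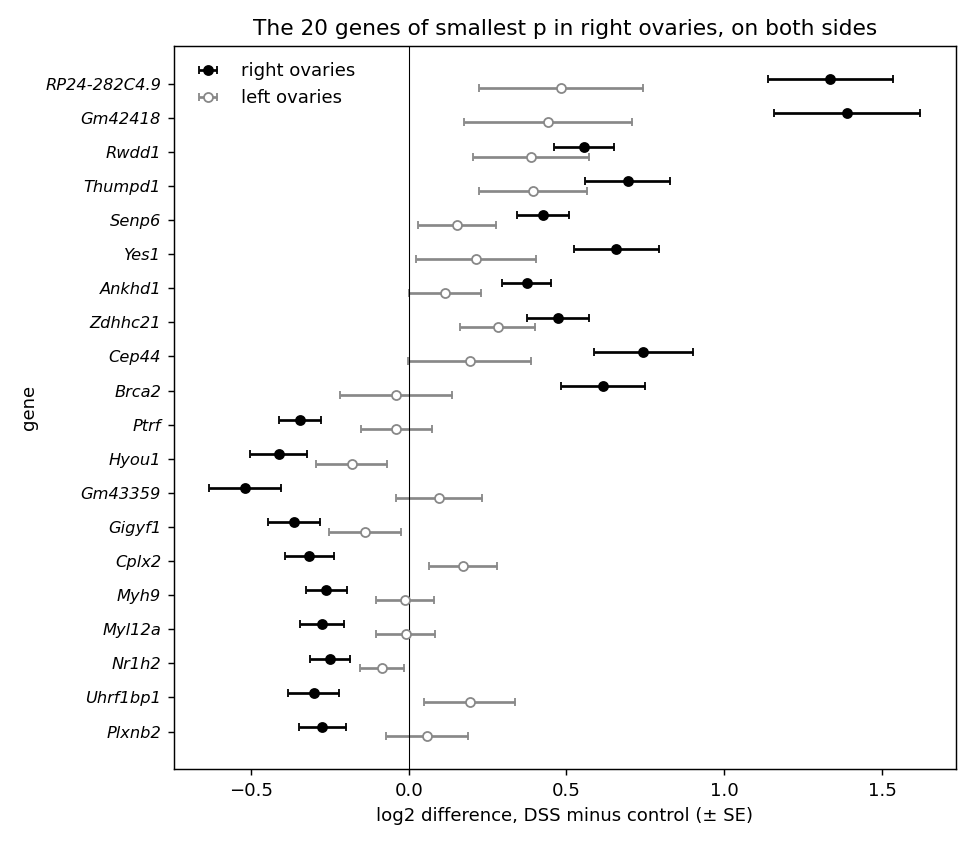
Log2 differences (DSS minus control, with SE) of the 10 genes of smallest p in each direction in right ovaries, shown for right ovaries (black) and in left ovaries of the same mice (white). In left ovaries 9 of the 10 higher genes lie above 0, Brca2 being at -0.04, and of the 10 lower genes Gm43359, Cplx2, Uhrf1bp1 and Plxnb2 lie above 0.

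Whether DSS and control mice differed unequally on the 2 sides was tested on each mouse's right minus left log2 difference. limma called 0 of 14646 genes (0%), with 1098 at an unadjusted p under 0.05 where 732 are expected. That total was 575 with an Ovgp1 covariate and 603 without libraries over 5000 Ovgp1. Without libraries over 2000 Ovgp1, a limit chosen after seeing the data, it was 538. The fits without these libraries also had fewer mice. With the GC slope as a covariate the total was 1089, and leaving out 1 mouse moved it between 788 and 1425. What part oviduct tissue had in the total was not tested. edgeR called 1 gene, Gm43028. This processed pseudogene (ENSMUSG00000107257.1, chromosome 5, 67988527 to 67989007, minus strand) was at 0.70 to 29.98 (mean 15.9 ± 10.8) in DSS and 0 to 4.03 (mean 2.14 ± 1.47) in control right ovaries. In left ovaries it was at 0 to 6.86 (mean 2.97 ± 2.09) in DSS and 0 to 32.6 (mean 16.8 ± 13.1) in control mice. Its log2 difference was thus 2.09 in right and -1.64 in left ovaries, a right minus left difference of 3.74 (SE 0.61; adjusted p = 0.205 with limma, 0.000298 with edgeR). Reads of a processed pseudogene can stem from its parent or another copy, so its level is uncertain.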

How the data were processed

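The authors deposited a single table of normalized counts for 50600 genes in 30 libraries, a signal in which each library's read counts are divided by 1 size factor. The submitters' processing notes name GRCm38.p5 and the tools TopHat, HTSeq and DESeq2, and versions, annotation and strand setting are not given in the sources used here, so overlapping genes are uncertain. Each sample was indexed with a pool of 3 primers, per the labels' protocols. The table held 0 other per-sample columns. A read was worth 0.528 to 1.33 normalized counts, depending on the library, and dividing by it gave whole reads for 99.99% to 100% of values within 0.0051. Chi-square values per degree of freedom between libraries of a group were 2.953 to 17.76, so none was counted as a repeat deposit.

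Right ovaries of 7 DSS and 8 control mice were compared with limma 3.58.1 (R 4.3.3, empirical Bayes with a trend on mean level) on log2(normalized count + 1), without covariates. Genes had a mean of at least 5 normalized counts, and p-values were two-sided, Benjamini-Hochberg adjusted over all genes tested and called under 0.05. Left ovaries, and each mouse's right minus left difference, were fitted in the same way. edgeR 4.0.16 (quasi-likelihood) and DESeq2 1.42.0 on recovered reads were alternatives. The genes named were the 10 of smallest p in each direction, 5 per direction for the side difference, a set of genes chosen from the study's question and earlier results, and members of 32 gene lists. Members, lists and tests were chosen with earlier results of these data known. GC content came from the longest GENCODE M21 transcript, for 7873 of 7875 genes with a mean of at least 50. The fitting steps were tested on simulated data. The read totals limit precision for low genes, and intervals are based on the spread between mice.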

Additional observations from a re-analysis of the deposited data

Results flagged for a closer look

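In 9 of 78 groups examined, a single library lay far from the others of its group by Dixon's 95% criterion. Each group was the 7 DSS or 8 control right ovaries for 1 gene, and chance meets the criterion in about 1 in 20 groups. The criterion was applied to log2(normalized count + 1), while the values below are normalized counts. Library DSS_322_13.2_right was lowest in Gigyf1, at 397.4 normalized counts with the next at 490.18, and in Myl12a, at 416.33 with the next at 486.27. Library DSS_292_11.2_right had 12.51 of Fshr (next 23.65) and library DSS_256_10.4_right had 1163.87 of Lhcgr (next 1700). Among control ovaries, library control_250_10.5_right had 183.89 of Srd5a1 (next 296.14) and 42.97 of Mpv17l2 (next 52.29). Library control_388_16.9_right had 141.93 of Ankhd1 (next 173.86), library control_352_15.3_right had 44.71 of Cyp17a1 (next 710.56), and library control_304_11.4_right had 50.86 of Gm29055 (next 70.97). All 9 values were the lowest of their group for that gene, and a log scale spreads low values more than high ones.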

How the results depend on the processing

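limma's single call in right ovaries was 1 gene with pseudocounts of 0.5 and 5, no filter or an Ovgp1 covariate, and 3 genes with a mean of at least 1 or 20, TMM scaling or quantile normalization. It was 0 without libraries over 5000 Ovgp1, without the trend, and with both ovaries averaged. It was also 0 in the alternatives chosen after seeing the data, the GC slope covariate and leaving out libraries over 2000 Ovgp1. edgeR called 2 and DESeq2 20. Leaving out 1 mouse gave 0 to 4, with 4 without DSS_298_11.1_right, 3 without control_274_10.6_right or control_334_13.5_right, and 2 without DSS_394_16.3_right. RP24-282C4.9 passed in 14 of 25 settings, Gm42418 in 8 and Rwdd1 in 4. The log2 difference of RP24-282C4.9 was 1.43 (limma adjusted p = 0.06005) without libraries over 5000 Ovgp1, and with the GC slope 1.022 (adjusted p = 1). In left ovaries, 11 calls became 0 with the Ovgp1 covariate or without libraries over 5000 or 2000 Ovgp1, 3 with the GC slope, and 6 to 21 (often 6, 7 or 8) without 1 mouse. For right minus left, the count stayed at 0 without any 1 mouse, and 1 with the Ovgp1 covariate, without libraries over 5000 Ovgp1 and with edgeR. With the number before the point of each mouse's label as a replicate block, 3 genes were called in right, 5 in left and 0 for the difference. Log2 deviations of same-numbered right ovaries from their own group's mean per gene correlated between the 2 groups at -0.102 to 0.212. With 1 or 2 mice per number and group, these correlations cannot tell whether the numbers pair the mice. Cyp19a1 turned to -0.13 (over 5000 Ovgp1 left out), -0.50 (over 2000), -0.45 (GC slope) and -0.04 (edgeR), and to between -0.10 and 0.31 without 1 mouse, with -0.06 without DSS_298_11.1_right and -0.07 without control_250_10.5_right. With the GC slope Fshr turned to -0.04 and Cyp17a1 to -0.22, Lhcgr was -0.02 without control_352_15.3_right, and Ovgp1 became 0.33 and 0.41 without libraries over 5000 and 2000. The cause was not tested. Levels of a few counts, as for Gm43028, limit what depth can show.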

Other observations

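Rpl21-ps5, a processed pseudogene of a ribosomal protein gene on chromosome 16, varied between mice on both sides. Right ovaries held 11.01 to 182.51 normalized counts (mean 105 ± 59.4) in DSS mice and 0 to 132 (mean 35.9 ± 54.8) in control mice, with 4 control ovaries above the lowest DSS ovary. Left ovaries held 0.98 to 144 (mean 51.5 ± 63.2) in DSS mice and 6.62 to 209 (mean 112 ± 71.7) in control mice. The right minus left difference of the log2 differences was 5.05 (SE 1.08, limma adjusted p = 0.423, edgeR adjusted p = 0.377), and how many of its reads come from its parent or from other copies was not tested.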
